A study of Mus musculus with 7 samples.

Results

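Matrix metalloproteinases (MMP), the membrane proteases of the ADAM family, the secreted ADAMTS proteases with their enzyme-less ADAMTSL relatives, and the TIMP inhibitors were followed in RNA-seq counts of liver endothelial cells from livers labelled Maf knockout or control; Maf encodes the transcription factor c-Maf. Members were the rows of the count table whose mouse symbol is Mmp, Adam, Adamts, Adamtsl or Timp followed by its number, other than Adam23, with at least 50 counts summed over all 7 libraries. Of 52636 rows, 78 had such a symbol and 40 reached the minimum: 10 MMP, 12 ADAM, 15 ADAMTS or ADAMTSL and 3 TIMP genes. The study sequenced polyadenylated RNA of mouse liver endothelium, sorted by flow cytometry, in 4 libraries labelled c-Maf KO and 3 labelled Control. The labels do not give the Cre line or other allele behind the knockout (KO), the strain, the age, or whether each library came from its own animal. The p-values therefore reflect only how these 7 libraries vary, and some of that variation may be technical. Lane 5 carried 3 KO and 2 control libraries, and lane 4 carried KO 3 and control 3.

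MMPs are zinc proteases that cut collagens, laminins and other matrix proteins, either secreted or held at the cell membrane. ADAM proteases shed the outer parts of membrane proteins such as growth factors, cytokine receptors and Notch, and ADAMTS proteases cut proteoglycans, procollagens and von Willebrand factor in the space around the cell. TIMPs bind the active site of MMPs and block it, and TIMP3 also inhibits ADAM and ADAMTS proteases. TIMP2 together with MMP14 also takes part in activating pro-MMP2. In the liver sinusoid, where endothelium rests on sparse matrix, these enzymes and inhibitors are studied in matrix turnover, fibrosis and regeneration.

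The libraries held between 24772716 and 32960007 counts. Values below are CPM, the gene's count over each 1000000 counts of a library, scaled by the trimmed mean of M-values (TMM), given as mean ± SD over 4 KO and 3 control libraries. "Rose" and "fell" mean an adjusted p under 0.05 in edgeR's quasi-likelihood test of KO against control, with Benjamini-Hochberg adjustment over all 15512 genes tested. Maf stood at 28.9, 159, 124 and 37.7 CPM in KO 1 to 4, against 1664, 2088 and 2147 CPM in controls 1 to 3 (log2 fold change -4.49, adjusted p = 0.000347, edgeR). Sinusoidal endothelial markers, a list of 10 genes chosen with earlier results of these data known, summed to between 11141 and 16998 CPM in the KO. In controls they summed to between 33201 and 37131 CPM. Of the 10 markers 7 fell, which is 70.0%, against 22.2% of all genes tested, but none was at 0. Cell cycle genes, a list of 12 chosen in the same way, all rose, against 23.0% of all genes tested. In bulk RNA, fewer cells of a type and less RNA per cell cannot be told apart.

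Genes of this protease system changed in both directions. Of the 40 members 39 passed the filter on low counts, and 11 rose, 9 fell and 19 did not pass the test. Called members made up 51.3% of those tested, against 45.2% of all genes tested. Rises were 28.2% against 23.0% of all genes, and falls 23.1% against 22.2%, so these shares lay near those of the whole table. Called changes of at least 2-fold took up more of the members than of the table: 9 rises, or 23.1% of tested members, against 10.5% of all genes, and 6 falls, or 15.4%, against 5.95%. These shares are descriptions with no test. The classes of members described below are too small for their counts of calls to be read as differing from the whole table. The median log2 fold change was -0.19 over the members and 0.0433 over all genes. KO and control libraries were fully separate in 21 members, which is 53.8%, against 50.3% of all genes; all 4 KO libraries lay above all controls in 25.6% of all genes and below them in 24.7%. Lane 5 alone gave 11 rises and 11 falls, while lane 4, with a single KO and a single control library, allows no test. Counting over library totals in place of TMM moved the median of all genes by more than any other scaling, to 0.308, and gave 13 rises and 6 falls.

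**Figure D1:**
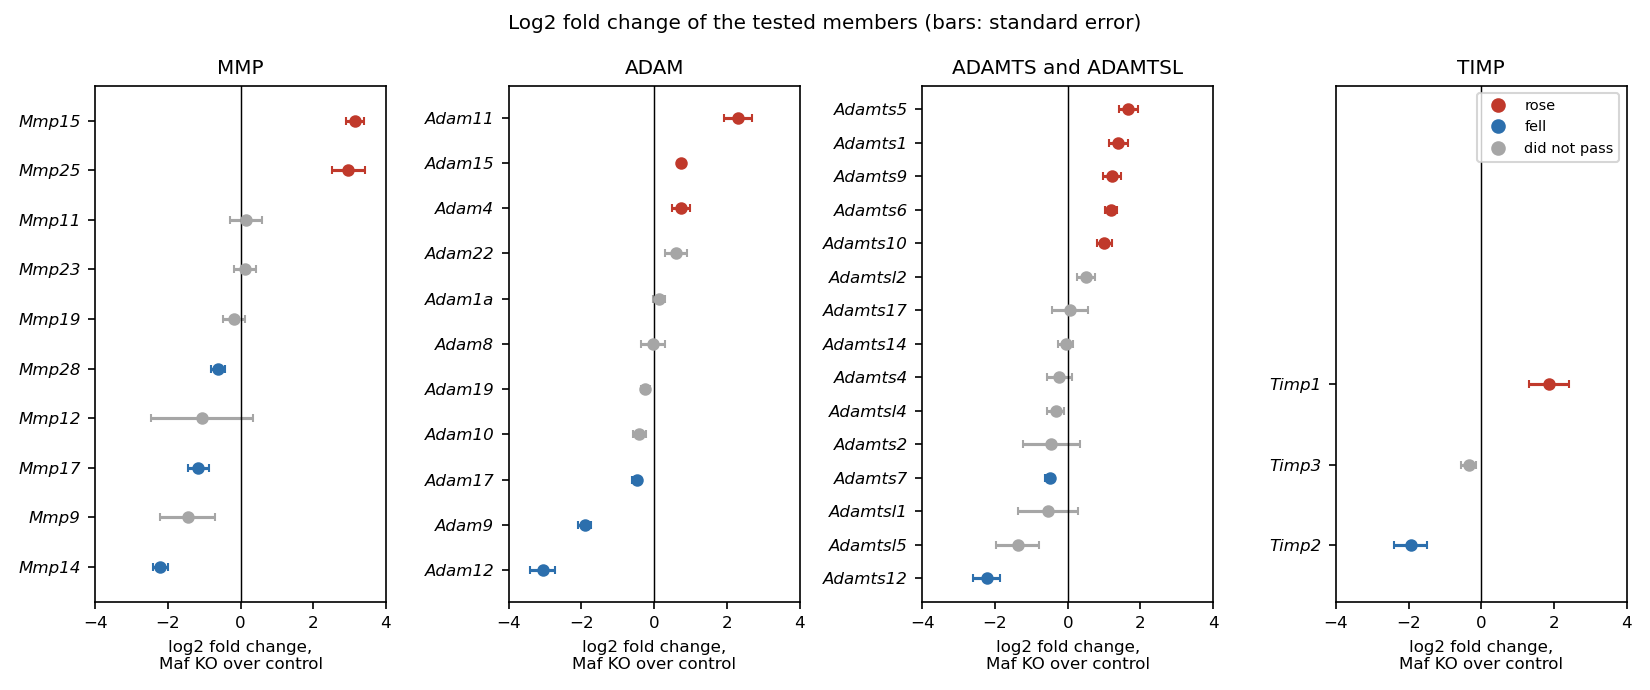
Log2 fold change of the 39 tested members, KO over control, in panels for MMP, ADAM, ADAMTS with ADAMTSL, and TIMP genes. Points are estimates of edgeR's quasi-likelihood fit with bars of 1 standard error, and colour marks the 11 that rose, the 9 that fell and the 19 that did not pass; Mmp15 is highest at 3.16 and Adam12 lowest at -3.07.

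Levels of different genes were compared per kb of exon, as mean CPM per kb, with exon lengths from the union of annotated transcripts. Adamts1, a secreted protease that cuts the proteoglycans aggrecan and versican, was the most abundant member in both groups, at 459 CPM per kb in the KO and 175 CPM per kb in controls. The second place differed between the groups. It was held by the inhibitor gene Timp3 in the KO at 56.8 CPM per kb, and by the membrane protease gene Mmp14 in controls at 96.7 CPM per kb. Mmp14 was sixth in the KO at 20.9 CPM per kb. Behind Timp3 in the KO came Adam15, Adamts10 and Adam10 at 44.5, 43.6 and 40.8 CPM per kb, and behind Mmp14 in controls came Timp3, Adam10 and Adam9 at 72.2, 54.3 and 45.0 CPM per kb. Of the 40 members 21 stayed below 1 CPM per kb in both groups.

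**Figure D2:**
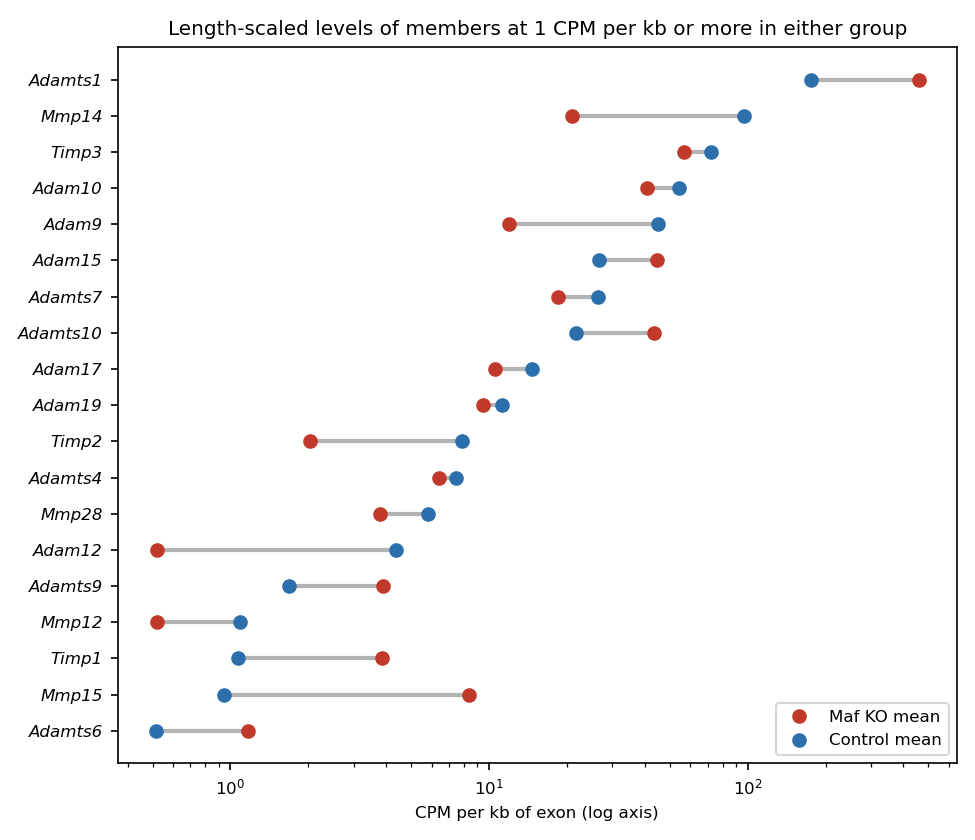
Mean level of each member that reached 1 CPM per kb of exon in either group, 19 of 40, on a log axis. Red points are means of 4 KO libraries and blue points means of 3 control libraries, joined by a line; Mmp14, Adam9, Adam12 and Timp2 lie far lower in the KO, and Mmp15, Timp1 and Adamts1 far higher.

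The membrane-bound MMP genes changed in opposite directions. Of 5 members, Mmp15 and Mmp25 rose, Mmp14 and Mmp17 fell, and Mmp23 did not pass. Called members were 80.0% here, against 45.2% of all genes, and with 5 genes this is not read as a difference in share. Mmp14, on chromosome 14, encodes MT1-MMP, a collagenase of the cell surface that also activates pro-MMP2. It stood at 99.0, 154, 151 and 94.6 CPM in KO 1 to 4, against 482, 607 and 640 CPM in controls 1 to 3. Every KO library lay far below every control, and the mean was 125 ± 32.1 CPM in the KO and 576 ± 83.6 CPM in controls (log2 fold change -2.21, SE 0.202, adjusted p = 5.9e-05, edgeR). Mmp15, on chromosome 8, encodes the related MT2-MMP. Its values were 50.2, 35.7, 46.9 and 48.6 CPM in KO 1 to 4, against 4.15, 3.66 and 7.50 CPM in controls 1 to 3. All 4 KO libraries were far above the controls, and Mmp15 rose 8.92-fold (log2 fold change 3.16, SE 0.249, adjusted p = 3.2e-05, edgeR), the largest rise among the members. Per kb of exon, Mmp14 exceeded Mmp15 by between 1.76 and 3.90 times in single KO libraries, and by between 77.3 and 150 times in single controls.

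The other membrane-bound MMP genes were scarce. Mmp25, which encodes a protease anchored by glycosylphosphatidylinositol and best known from leukocytes, had 1.87, 1.99, 3.29 and 1.39 CPM in KO 1 to 4, against 0.255, 0.125 and 0.439 CPM in controls 1 to 3 (log2 fold change 2.96, SE 0.457, adjusted p = 0.000935, edgeR). It lay higher in every KO library. Neutrophil markers, 11 genes of which Elane had no count in any library, summed to between 3.07 and 9.66 CPM in the KO and between 2.48 and 9.30 CPM in controls, and their part in the Mmp25 result was not tested. Mmp17, a second gene of an enzyme with a lipid anchor, averaged 0.982 ± 0.306 CPM in the KO and 2.22 ± 0.529 CPM in controls and fell 2.24-fold (adjusted p = 0.0106, edgeR). That call was lost when control 3 and KO 1 were both left out (adjusted p = 0.0752). Mmp23 had 1.77 ± 0.470 CPM in the KO and 1.63 ± 0.509 CPM in controls (adjusted p = 0.762, edgeR). Below the count minimum, Mmp16 had 9 counts in KO 1, 6 in KO 3 and 0 elsewhere, and Mmp24 had 6 counts in all, none of them in a control.

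**Figure D3:**
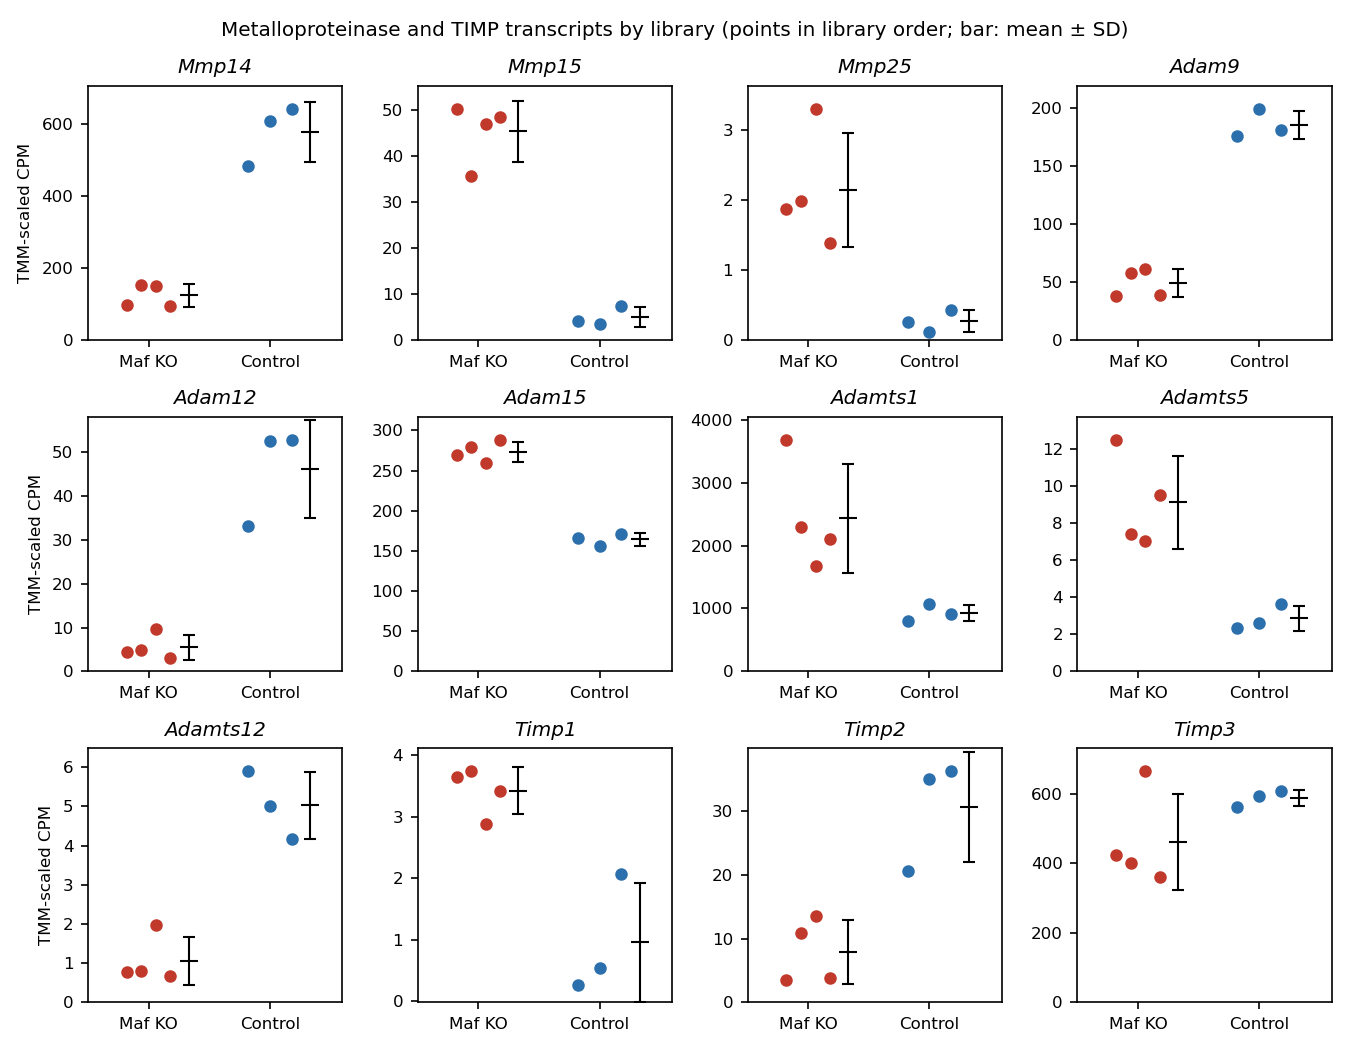
TMM-scaled CPM of 12 members in each library, on linear axes from 0 (just below 0 for Timp1, to hold its error bar). Points are libraries in order of their number, KO left and control right, and bars are means ± SD over 4 and 3 libraries; the groups are separate in every panel but Timp3, where KO 3 at 665 CPM lies above the controls.

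Promoter sequence was read for the members from the RefSeq table of build GRCm38.p6, which matched 26 of the 40 genes. The 250 bases before the start are shown for a fallen and a risen membrane MMP gene (Mmp14 and Mmp15), for the fallen inhibitor gene Timp2 and for the risen and most abundant protease gene Adamts1, so that the letters beside each start can be compared. They are on chr14:54431348-54431597 (plus strand), chr8:95352046-95352295 (plus strand), chr11:118355412-118355661 (minus strand) and chr16:85803114-85803363 (minus strand), written 5′ to 3′ along the gene, and capitals mark GC boxes (GGGCGG or its complement CCGCCC) and the TATA box (TATAAA).
Mmp14: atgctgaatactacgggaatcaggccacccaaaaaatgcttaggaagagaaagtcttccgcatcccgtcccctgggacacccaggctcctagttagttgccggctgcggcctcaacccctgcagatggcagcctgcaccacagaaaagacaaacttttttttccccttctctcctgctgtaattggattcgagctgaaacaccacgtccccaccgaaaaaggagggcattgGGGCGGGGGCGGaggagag
Mmp15: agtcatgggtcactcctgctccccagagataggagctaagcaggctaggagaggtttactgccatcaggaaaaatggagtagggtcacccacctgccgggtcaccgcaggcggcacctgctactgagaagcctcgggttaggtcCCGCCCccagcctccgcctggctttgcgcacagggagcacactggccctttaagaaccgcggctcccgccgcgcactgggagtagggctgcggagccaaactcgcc
Timp2: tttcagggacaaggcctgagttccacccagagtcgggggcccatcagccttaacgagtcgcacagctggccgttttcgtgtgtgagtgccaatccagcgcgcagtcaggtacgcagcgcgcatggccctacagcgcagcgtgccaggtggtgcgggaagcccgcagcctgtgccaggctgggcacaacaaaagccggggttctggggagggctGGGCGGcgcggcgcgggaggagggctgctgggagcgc
Adamts1: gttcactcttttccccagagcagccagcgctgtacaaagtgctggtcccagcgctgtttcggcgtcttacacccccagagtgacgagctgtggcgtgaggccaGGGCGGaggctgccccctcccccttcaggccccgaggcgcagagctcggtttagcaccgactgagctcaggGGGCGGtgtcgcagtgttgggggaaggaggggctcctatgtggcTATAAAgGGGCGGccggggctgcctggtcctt

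Mmp14 has a pair of adjoining GC boxes near its start, Mmp15 and Timp2 have 1 each, and Adamts1 has 3 GC boxes and a TATA box 32 bases before the start. On both strands, the core of the site bound by MAF proteins (TGCTGAC) was in 0 of 30 member promoters and in 3.81% of all 32851 promoters of that length. The AP-1 site (TGACTCA) was in 2 of the 30, or 6.67%, those of Adam19 and Mmp12, and in 4.46% of all. The cAMP response element (TGACGTCA) was in 0 of the 30 and in 1.55% of all. A GC box was in 19 of the 30, or 63.3%, and in 32.7% of all. A TATA box was in 2, or 6.67%, those of Adamts1 and Adamtsl2, and in 12.4% of all. GC content of the windows lay between 54.4% and 71.2% in genes that rose and between 55.2% and 70.4% in genes that fell. These are matches of letters in a short window and say nothing on binding elsewhere. The 32851 promoters were taken without a minimum of counts, unlike those of the members, so the shares are not of like sets of genes.

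Among secreted MMP genes only Mmp28 was called. Of 5 members Mmp28 fell, and Mmp9, Mmp11, Mmp12 and Mmp19 did not pass. Across all genes tested 45.2% were called, and with 5 members no difference in share is read. No secreted collagenase gene was among them. Mmp28, the gene of epilysin, had 11.4, 14.2, 18.8 and 14.2 CPM in KO 1 to 4, against 19.1, 20.3 and 28.1 CPM in controls 1 to 3. The groups came within a small step of each other without overlapping, and the call (log2 fold change -0.62, SE 0.186, adjusted p = 0.0242, edgeR) was lost without control 3 (adjusted p = 0.0993), without KO 2 (0.0531) or KO 4 (0.0631), without control 3 and KO 1 together (0.148) and with library totals (0.127). Exons of Mmp28 share 12.0% of their length with a gene on the other strand, 1700020L24Rik, which had 913 counts to 3536 for Mmp28. Mmp9, the gene of gelatinase B, averaged 0.467 ± 0.149 CPM in the KO and 1.30 ± 1.48 CPM in controls (adjusted p = 0.149, edgeR). Its control mean rested on control 2, with 2.96 CPM beside 0.109 and 0.833 CPM, and without control 1 the adjusted p was 0.0162.

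Mmp12, the macrophage elastase gene, varied by orders of magnitude within each group. It had 0.495, 4.53, 0.204 and 9.88 CPM in KO 1 to 4, against 0.0364, 22.2 and 1.49 CPM in controls 1 to 3 (log2 fold change -1.06, SE 1.40, adjusted p = 0.563, edgeR). Control 2 and KO 4 were the high libraries, and without control 2 the log2 fold change turned to 2.35. The 10 macrophage markers, all detected, summed to between 55.2 and 197 CPM in the KO, where KO 4 was lowest and KO 2 highest, and between 86.3 and 300 CPM in controls, where control 2 was highest. Among the KO libraries, KO 4 was lowest in each of these markers but Lyz2 and Marco. Lyz2 had 15.4, 52.3, 16.6 and 25.1 CPM in KO 1 to 4. The part of macrophages in the Mmp12 values was not tested. Mmp11 and Mmp19 stood at 0.693 and 1.87 CPM in the KO and at 0.624 and 2.14 CPM in controls, and 22.3% of Mmp19's exon length also belongs to Tmem198b on the other strand.

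Several well-known MMP genes were near the limit of detection. Mmp2, the gene of gelatinase A, had 30 counts in all, of which KO 1 to 4 held 5, 6, 3 and 5 and controls 1 to 3 held 5, 3 and 3. The collagenase genes Mmp8 and Mmp13 had 13 and 2 counts over the 7 libraries, and Mmp3, Mmp7 and Mmp10 had 0. A count of 0 allows up to 3 counts, which is between 0.0873 and 0.106 CPM in single KO libraries and between 0.109 and 0.132 CPM in single controls, for counting error only. Summed over the 10 members, MMP transcripts reached 169.9, 214.4, 225.9 and 174.8 CPM in KO 1 to 4, against 511.0, 662.8 and 686.4 CPM in controls 1 to 3. Mmp14 alone made up 63.5% of that sum in the KO and 93.0% in controls.

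ADAM genes with an active protease site included both of the general sheddases. Of 9 such members Adam15 rose, Adam9, Adam12 and Adam17 fell, Adam8, Adam10, Adam19 and Adam1a did not pass, and Adam33, with 60 counts in all, was not tested. Adam9, a sheddase of growth factors and adhesion molecules, had 38.1, 58, 61.2 and 39.2 CPM in KO 1 to 4, against 176, 199 and 181 CPM in controls 1 to 3. Its levels in the KO were all under those of the controls (log2 fold change -1.91, SE 0.175, adjusted p = 5.8e-05, edgeR). Adam12, whose protein cuts heparin-binding EGF and insulin-like growth factor binding proteins, held 4.35, 4.92, 9.63 and 3.01 CPM in KO 1 to 4, against 33.2, 52.5 and 52.7 CPM in controls 1 to 3. This was the largest fall among the members, 8.39-fold (log2 fold change -3.07, SE 0.346, adjusted p = 0.000175, edgeR), and it passed in every alternative fitted.

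Adam15 varied little within the groups. Its protein is an adhesion molecule and sheddase found on endothelium that binds integrins. Its level was 269, 279, 259 and 288 CPM in KO 1 to 4, against 166, 156 and 171 CPM in controls 1 to 3 (log2 fold change 0.74, SE 0.0891, adjusted p = 0.000253, edgeR). KO libraries were all higher, by 1.67-fold on the fitted scale. An antisense gene, 4731419I09Rik, shares 20.6% of Adam15's exon length but had 324 counts in all, against 47039 for Adam15. Per kb, Adam9 stood at between 0.203 and 0.353 times the level of Adam15 in single KO libraries, and at between 1.58 and 1.90 times in single controls.

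Adam10 and Adam17, the genes of the sheddases that release Notch and tumour necrosis factor from the membrane, moved less. Adam17 averaged 75.4 ± 11.5 CPM in the KO and 105 ± 7.44 CPM in controls and fell 1.40-fold (adjusted p = 0.0101, edgeR). The call was lost with library totals (adjusted p = 0.0917) and without control 3 and KO 1 together (0.0578). Exons of Adam17 share 4.35% of their length with Iah1 on the other strand, which had 4896 counts. Iah1 fell too (log2 fold change -0.64, adjusted p = 0.00108, edgeR), and its part in the Adam17 counts was not tested. Adam10 had 162, 193, 274 and 174 CPM in KO 1 to 4, against 241, 284 and 274 CPM in controls 1 to 3. KO 3 lay among the controls and the other 3 KO libraries below them, so that the gene missed the threshold (log2 fold change -0.41, adjusted p = 0.0835, edgeR). It passed without KO 3 (adjusted p = 0.00167), in lane 5 alone (0.00458), with the lane as covariate (0.0409) and with DESeq2 (0.0440). The ratio of Adam10 to Adam17 per kb was between 3.44 and 4.34 in single KO libraries and between 3.61 and 3.74 in single controls.

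Adam19 and Adam8 showed no called difference. Adam19, a sheddase of neuregulin, averaged 67.5 ± 11.3 CPM in the KO and 79.6 ± 5.26 CPM in controls (adjusted p = 0.158, edgeR), and its sign turned with library totals. Adam8, a leukocyte sheddase, had 4.48 ± 0.738 CPM in the KO and 4.57 ± 2.72 CPM in controls. Adam1a, best known from sperm, had 5.41 ± 0.394 and 4.90 ± 0.783 CPM in KO and controls, but 63.7% of its exon length belongs also to Gm42878 on the same strand, so its counts are uncertain. ADAM members of other kinds were scarce. Adam11, a neuronal ADAM without protease activity, had 1.49, 0.879, 1.31 and 1.65 CPM in KO 1 to 4, against 0.328, 0.333 and 0.132 CPM in controls 1 to 3, and rose 4.92-fold (adjusted p = 0.00148, edgeR). Adam4, known from testis, averaged 1.88 ± 0.350 CPM in the KO and 1.12 ± 0.157 CPM in controls. Its rise (adjusted p = 0.0347, edgeR) was lost when any single library other than KO 3 was left out, at adjusted p between 0.0526 and 0.126. It was also lost with the lane as covariate (0.0523), with no filter on low counts (0.0652), with a replicate block (0.129) and without control 3 and KO 1 together (0.0916). Adam22, a synaptic ligand receptor without protease activity, did not pass at 1.70 and 1.12 CPM in KO and controls (adjusted p = 0.125).

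Among the members, the proteoglycan-cutting ADAMTS genes were higher in the KO, with 1 exception. Of 4 members, Adamts1, Adamts5 and Adamts9 rose, 0 fell and Adamts4 did not pass. Rises were 75.0% here, against 23.0% of all genes, and with 4 genes this is not read as a difference in share. The product of Adamts1, on chromosome 16, also inhibits angiogenesis. It reached 3675, 2290, 1673 and 2107 CPM in KO 1 to 4, against 809, 1071 and 908 CPM in controls 1 to 3. KO 1 stood well above the other 3, all of which exceeded every control (log2 fold change 1.39, SE 0.262, adjusted p = 0.00266, edgeR). Of 13 immediate-early genes that respond to tissue dissociation 5 rose, which is 38.5%, against 23.0% of all genes, and 0 fell. Together the 13 summed to 23828, 18986, 11671 and 14285 CPM in KO 1 to 4, against 10589, 10006 and 8153 CPM in controls 1 to 3. KO libraries had the same order in that sum as in Adamts1, an order shared by 10.8% of all genes that rose and 6.21% of all genes tested. The part of dissociation in the Adamts1 result was not tested.

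Adamts5, the main aggrecanase of mouse cartilage, was scarcer but changed more. It had 12.5, 7.42, 7.07 and 9.53 CPM in KO 1 to 4, against 2.33, 2.62 and 3.64 CPM in controls 1 to 3, and rose 3.19-fold (adjusted p = 0.000854, edgeR). Adamts9, a versican-cutting protease needed in vascular development, averaged 58.8 ± 18.6 CPM in the KO and 25.3 ± 4.81 CPM in controls and rose 2.32-fold (adjusted p = 0.00405, edgeR). For both genes each KO library lay above each control. Adamts4, another aggrecanase, had 48.4, 36.3, 21.6 and 16.5 CPM in KO 1 to 4, against 26.6, 49.3 and 31.9 CPM in controls 1 to 3 (adjusted p = 0.621, edgeR). Its groups overlapped over most of their range. Adamts15, of the same class, had 19 counts in all, 10 of them in control 3.

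ADAMTS genes of other kinds went both ways. Of 5 members, Adamts6 and Adamts10 rose, Adamts7 and Adamts12 fell, and Adamts17 did not pass. Adamts10, a fibrillin-binding protease, stood at 495, 313, 269 and 363 CPM in KO 1 to 4, against 183, 160 and 193 CPM in controls 1 to 3 (log2 fold change 1.01, SE 0.198, adjusted p = 0.00324, edgeR). Its close relative Adamts6 averaged 9.13 ± 1.46 CPM in the KO and 4.01 ± 0.523 CPM in controls (log2 fold change 1.19, adjusted p = 0.000762, edgeR). Fbn1, the gene of fibrillin 1, which these proteases bind, rose 5.02-fold. Adamts7 and Adamts12, a second pair of relatives that cut cartilage oligomeric matrix protein, fell together. Adamts12 had 0.778, 0.814, 1.98 and 0.679 CPM in KO 1 to 4, against 5.90, 5.0 and 4.17 CPM in controls 1 to 3 (log2 fold change -2.23, SE 0.366, adjusted p = 0.00129, edgeR). KO 3 lay apart from the other KO libraries yet under all controls, and in lane 5 alone the log2 fold change was -2.89. Adamts7 averaged 116 ± 18.3 CPM in the KO and 165 ± 15.2 CPM in controls and fell 1.42-fold (adjusted p = 0.0127, edgeR), a call lost with library totals (adjusted p = 0.130). Exons of Adamts7 share 1.94% of their length with Tbc1d2b on the other strand, which had 36401 counts. Tbc1d2b fell too (log2 fold change -0.65, adjusted p = 0.00897, edgeR), and its part in the Adamts7 counts was not tested.

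The procollagen and ADAMTSL classes had no called member, while 45.2% of all genes tested were called. With 2 and 4 members, this is not read as a difference in share. Adamts14 and Adamts2, whose proteins trim procollagens, stood at 3.50 and 0.407 CPM in the KO and at 3.66 and 0.570 CPM in controls. Adamts2 was highest in control 3, at 1.27 CPM. The 4 ADAMTSL genes, of which Adamtsl4 was the most abundant per kb at 0.549 CPM per kb in the KO and 0.691 CPM per kb in controls, all stayed at or under 2.92 CPM in the KO mean and 2.90 CPM in the control mean. For Adamtsl2, which binds fibrillin and latent TGF-beta binding protein, KO libraries ran from 2.37 to 4.04 CPM and controls from 1.80 to 2.29 CPM, without overlap but without passing (adjusted p = 0.125, edgeR). Adamts13, the von Willebrand factor protease gene known from hepatic stellate cells, had 21 counts in all. Summed over 15 members, ADAMTS and ADAMTSL transcripts came to 4468, 2825, 2154 and 2680 CPM in KO 1 to 4, against 1211, 1495 and 1365 CPM in controls 1 to 3, and Adamts1 was 80.4% of the KO sum and 68.5% of the control sum.

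The inhibitor genes divided 3 ways: Timp1 rose, Timp2 fell and Timp3 did not pass. Timp2 had 3.50, 10.9, 13.5 and 3.75 CPM in KO 1 to 4, against 20.6, 34.9 and 36.2 CPM in controls 1 to 3. All KO libraries lay under all controls, KO 1 and KO 4 furthest (log2 fold change -1.94, SE 0.454, adjusted p = 0.00773, edgeR). Timp1, a secreted inhibitor induced by inflammation and fibrosis, had 3.64, 3.74, 2.88 and 3.42 CPM in KO 1 to 4, against 0.255, 0.541 and 2.06 CPM in controls 1 to 3. The KO libraries were alike and the controls were not, with control 3 close under the KO (log2 fold change 1.86, SE 0.550, adjusted p = 0.0219, edgeR). The log2 fold change was 3.10 without control 3 and 3.14 in lane 5 alone, and the call was lost without control 2 (adjusted p = 0.0864).

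Timp3, whose protein binds to matrix and inhibits ADAM and ADAMTS proteases beside MMPs, carried nearly all TIMP transcripts, 97.6% of their summed CPM in the KO and 94.9% in controls. It stood at 423, 401, 665 and 360 CPM in KO 1 to 4, against 563, 593 and 607 CPM in controls 1 to 3. KO 3 lay above the controls and the other 3 KO libraries below them, so that the gene missed the threshold (log2 fold change -0.35, SE 0.199, adjusted p = 0.182, edgeR). Without KO 3 it passed at an adjusted p of 0.00159, and in lane 5 alone at 0.00517. Per kb, Timp2 stood at between 0.219 and 1.07 times the level of Timp1 in single KO libraries, and at between 4.00 and 18.5 times in single controls. Timp4 had 39 counts in all and fell just short of the count minimum, next to Adam32 with 37, while Adam33 with 60 and Adamtsl5 with 84 were the nearest above it.

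Several transcripts of mesenchymal cells fell as well. The 12 stellate cell and fibroblast markers, all detected, summed to between 89.3 and 159 CPM in the KO. In controls the sum was between 213 and 352 CPM, with control 3 highest. Ecm1 alone held between 70.2 and 108 CPM of that sum in single KO libraries and between 164 and 186 CPM in single controls. The rest of the sum overlapped between the groups, with control 1 below KO 1 and KO 3. Of the 12 markers 7 fell, which is 58.3%, against 22.2% of all genes, and 0 rose. Lum, Col1a1, Col1a2, Col3a1 and Pdgfrb did not pass, and for each of them the groups overlapped. Timp2, Adam12 and Adamts12, genes that mesenchymal cells also express, fell in the KO too, and the markers' part in these results was not tested. From control 2 to control 3 the marker sum went from 221 to 352 CPM. Within it Col3a1 went from 7.08 to 54.1 CPM and Col1a2 from 5.29 to 41.1 CPM. Other markers moved little, with Des at 3.58 and 3.82 CPM and Lrat at 4.08 and 3.77 CPM. Timp2 had 34.9 and 36.2 CPM in these 2 libraries, Adam12 52.5 and 52.7 CPM, and Adamts12 5.0 and 4.17 CPM. Among controls the marker Rgs5 was lowest in control 1, at 8.34 CPM. Timp2 and Adam12 were lowest there too, while Adamts12 was highest there. Which cells carried these transcripts was not tested. Leaving out control 3 and KO 1 together, the libraries highest in fibroblast and in hepatocyte transcripts, gave 10 rises and 6 falls, and Timp2, Adam12, Adamts12, Mmp14, Adam9 and Adamts7 were the 6 that fell. Mesothelial markers, 4 genes all detected, summed to between 0.0295 and 3.46 CPM in the KO, against 0.728, 1.71 and 33.2 CPM in controls 1 to 3. Among low members, Adam33, Adamts2 and Adamtsl1 were also highest in control 3, at 1.27, 1.27 and 1.89 CPM.

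KO libraries differed in how far the members had moved. In 7 of the 9 fallen members, all but Adamts7 and Mmp17, the levels in KO 2 and in KO 3 exceeded those in KO 1 and KO 4, which is 77.8%, against 64.6% of all genes that fell. Maf itself had that split. In 6 of the 11 risen members, Adam11, Adamts5, Adamts6, Adamts9, Adamts10 and Mmp15, the levels in KO 1 and in KO 4 exceeded those in KO 2 and KO 3, which is 54.5%, against 40.5% of all genes that rose. Hepatocyte markers, 11 genes all detected, divided the libraries the same way, at 1563, 404, 436 and 743 CPM in KO 1 to 4, against 291, 318 and 349 CPM in controls 1 to 3. Their part in the order of the KO libraries was not tested.

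**Figure D4:**
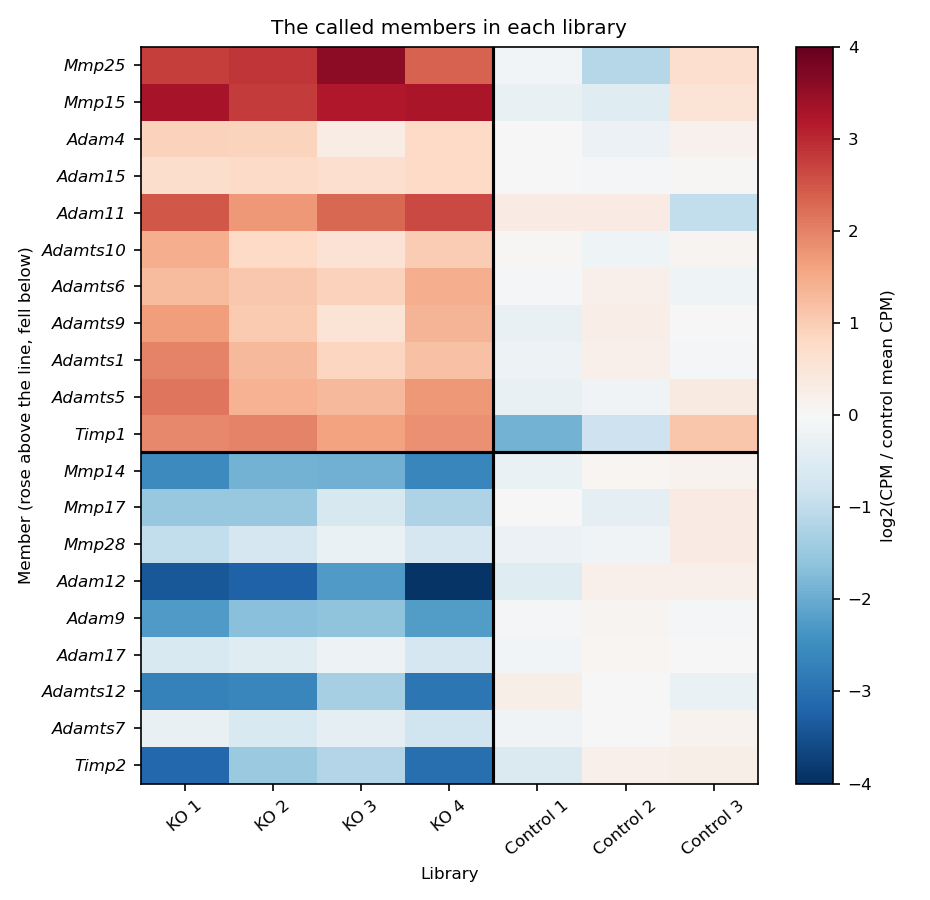
Level of the 20 called members in each library as log2 of CPM over the control mean, from -3.94 to 3.59, with KO libraries left of the line and controls right of it. The 11 risen members are above the horizontal line and the 9 fallen ones below, and within the KO columns KO 1 and KO 4 are lowest in Mmp14, Adam9 and Timp2.

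Genes that work with these proteases were read from lists of partners. The lists were drawn up with earlier results of these data known. Of 7 tested partners of ADAM10 and ADAM17, 3 fell and 0 rose, so that 42.9% were called, against 45.2% of all genes. All 3 were tetraspanins of the group that escorts ADAM10 to the cell surface: Tspan15 fell 2.11-fold (85.4 CPM in the KO and 180 CPM in controls, adjusted p = 0.000519, edgeR), Tspan14 1.42-fold and Tspan17 1.29-fold. The iRhom genes Rhbdf1 and Rhbdf2, needed for ADAM17 to mature, did not pass at adjusted p = 0.0545 and 0.225. Of 4 convertase genes 2 were called. Their enzymes remove the prodomain of many metalloproteinases. Pcsk5 rose 7.46-fold to 1.77 CPM in the KO, against 0.241 CPM in controls, and Furin fell 1.23-fold.

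Of 7 tested genes of plasminogen activation, which can start the activation of pro-MMPs, 3 rose and 1 fell, so that 57.1% were called, near the 45.2% of all genes. The urokinase gene Plau had 22.7, 43.7, 33.1 and 29.4 CPM in KO 1 to 4, against 112, 94.3 and 94.5 CPM in controls 1 to 3, and fell 3.11-fold (adjusted p = 0.000191, edgeR). The tissue activator gene Plat rose 5.19-fold (adjusted p = 0.00174, edgeR), and Plaur, the urokinase receptor gene, 2.42-fold. Plg, a hepatocyte gene, rose 3.03-fold, and in KO 1, where hepatocyte markers were highest, it was highest too, at 53.7 CPM. Of 5 tested inhibitors, inducers and clearance receptors 2 were called: Papln, a papilin related to ADAMTS proteins, rose 1.87-fold and Bsg, the inducer of MMPs also called basigin, fell 1.28-fold.

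Among 14 tested endothelial substrates of ADAM10 or ADAM17, 2 rose and 6 fell, which is 57.1% called. Tgfa, the transforming growth factor alpha gene, fell 2.76-fold, Lyve1 4.05-fold and Kdr, the VEGF receptor 2 gene, 1.81-fold, while Hbegf, the heparin-binding EGF gene, rose 2.49-fold. Of 12 tested matrix substrates 4 rose and 2 fell, so 6 of 12 were called. Fbn1 had 98.7, 95.7, 115 and 126 CPM in KO 1 to 4, against 13.2, 24.0 and 27.9 CPM in controls 1 to 3 (adjusted p = 1e-04, edgeR). Ltbp1, a latent TGF-beta binding protein, rose 2.91-fold and the basement membrane collagen gene Col4a1 by 0.59 on the log2 scale, while Bcan, a brain proteoglycan cut by ADAMTS4 and ADAMTS5, fell 6.83-fold with control 3 at 0.921 CPM, inside the KO range. With 4 to 14 tested genes a list, none of these called shares is read as differing from that of all genes.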

How the data were processed

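Polyadenylated RNA of sorted mouse liver endothelium was sequenced in 4 Maf KO and 3 control libraries. The labels name both an unstranded and a stranded TruSeq kit and do not tie either to a library, so overlapping and antisense genes are uncertain: 13 of the 40 members share exon bases with another gene. What the authors deposited are raw counts of reads per gene, with Ensembl IDs and no normalization. FastQC 0.11.5, STAR 2.7.6a and build GRCm38 were used, per the submitters' processing notes. For the counter, its annotation and its strand setting, the step is not given in the sources used here.

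Of 52636 IDs 52403 matched a symbol. Exon lengths and positions come from GENCODE mouse release M21, on GRCm38, and promoters from RefSeq. Counts were analysed in R 4.3.3 with edgeR 4.0.16: filterByExpr (minimum 10, total 15) left 15512 genes, TMM factors ranged between 1.043 and 1.135 for KO and between 0.8767 and 0.9211 for control libraries, and glmQLFTest compared KO with control without covariates, at an adjusted p under 0.05. Standard errors are the absolute log2 fold change over the square root of F. All pairs of libraries within a group differed by more than sampling noise, with a chi-square of 13.72 to 106.3 per degree of freedom.

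Alternatives were other scalings, filters, DESeq2 1.42.0, limma-voom (limma 3.58.1), lane, replicate block and leaving libraries out. Members and gene lists were chosen with earlier results of these data known. Named were Maf, TIMPs, called members, the most abundant member of each class, members near the count minimum, and up to 4 called genes with the smallest p per partner list. Genes named beyond that rule were chosen after their values were seen.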

Additional observations from a re-analysis of the deposited data

Results flagged for a closer look

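In Adamts12, a protease gene related to Adamts7, 1 KO library stood apart from the other 3. KO 3 had 1.98 CPM, while KO 1, KO 2 and KO 4 had 0.778, 0.814 and 0.679 CPM. The gap from KO 3 to the nearest library was 0.896 of the range of the group, above the critical value of 0.829 for 4 samples. Chance gives such a gap in about 1 in 20 groups, and it was found in 1 of 40 members.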

How the results depend on the processing

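Of the 20 called members 14 kept their call in all of the 18 alternatives that could be fitted for them, 6 lost it in at least 1 (Adam4, Adam17, Adamts7, Mmp17, Mmp28 and Timp1, with values given above), and 0 changed direction. Of 19 members that did not pass, 6 passed in at least 1 alternative. With each library left out, TIMP members that rose numbered 0 to 1 and those that fell 1 to 2. TIMP falls numbered 2 in lane 5 alone. A minimum mean log2 CPM of 1 left 1 MMP and 1 ADAM rise. Leaving out control 3 and KO 1 together, chosen after seeing the data, left 1 MMP fall. Library totals left 1 ADAMTS fall, called 6373 rises and 1976 falls among all genes, moved the share of rises among calls to 76.3% (50.8% with TMM, 63.4% with upper-quartile factors), and put the control mean of summed CPM at 773.2 for ADAM, 557.2 for TIMP and 3108 for all members, against 859.6, 619.1 and 3456 with TMM.

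Direction changed only in members that did not pass. Log2 fold changes that turned were, with library totals, 0.03 for Adam19, 0.25 for Adam8, 0.20 for Adamts14, 0.04 for Adamts4 and 0.08 for Mmp19. Upper-quartile factors gave 0.11 for Adam8 and 0.06 for Adamts14, and limma-voom gave 0.11 for Adam8, 0.06 for Adamtsl1 and 0.44 for Mmp12. Lane as covariate gave 0.06 for Adamtsl1, lane 5 alone 1.02 for Adamtsl1 and 0.07 for Adamts14, and leaving out control 3 and KO 1 gave 1.35 and 0.03 for the same pair. With each library left out, log2 fold changes ran from -0.27 to 0.57 for Adam8, -0.34 to 0.56 for Adamts17, -0.21 to 0.04 for Adamts14, -0.93 to 0.90 for Adamts2, -0.54 to 0.06 for Adamts4, -1.05 to 1.27 for Adamtsl1, -0.06 to 0.38 for Mmp23, -2.02 to 0.02 for Mmp9, -0.27 to 0.48 for Mmp11 and -2.17 to 2.35 for Mmp12. For Mmp19 they ran from -0.42 to 0.01. The causes were not tested.

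The replicate number as a block gave 2542 rises and 2627 falls among all genes, lost the call of Adam4 and no other member's, and turned Adam8 to 0.08 and Adamts2 to 0.05. Libraries with the same number correlated at -0.0133, 0.162 and 0.0674 in their deviations from the group means, so the numbers were not taken to pair them. Counting error limits members with few reads, such as Adam33 and Adamtsl5.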
